A study of Canis lupus familiaris with 36 samples.

Results

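CLBL-1 cells incubated for 24 h with Ibrutinib (Ibr) were compared directly with cells incubated for 24 h with AS-605240 (AS). CLBL-1 is a cell line grown from a spontaneous canine diffuse large B-cell lymphoma. The members are 6 of the 36 RNA-seq libraries of the study, chosen by their labels alone: 3 libraries of Ibr 24 h and 3 of AS 24 h, paired by the passage of the cells (replicates 1, 2 and 3 are 3 passages of the line). Ibr was given at 1 μM and AS at 5 μM, so the comparison is one of 2 compounds at the doses the study used and not at a matched dose. The other libraries cover DMSO alone and the combination Ibr + AS at 24 h, and all 4 treatments at 48 h and 72 h, and serve here as background. Control cells received as much DMSO as the combination, and whether cells with a single inhibitor were topped up to that content is not given in the sources used here. The 3 passages are repeats of 1 line. The p-values measure the spread left among CLBL-1 libraries once passage, treatment and time were accounted for. They do not measure the spread between dogs or tumours.

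Ibr binds Bruton's tyrosine kinase (BTK) irreversibly, and AS competes with ATP in phosphoinositide 3-kinases (PI3K), with the gamma isoform PIK3CG as its named target. BTK and PI3K enzymes act below the B-cell receptor. Other pathways also activate PI3K, and the paper describes Ras as a recruiter of mainly PIK3CG. PI3K makes the membrane lipid PIP3, which recruits BTK and AKT. BTK then activates phospholipase C gamma 2, from which calcium, NFAT, NF-κB and ERK signals follow, while AKT acts on mTOR and keeps FOXO transcription factors out of the nucleus. The direct comparison asks where the transcriptome of cells given Ibr departs from that of cells given AS. Separate comparisons with DMSO do not test this. The activity of the kinases was not measured in these libraries.

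The 6 libraries held between 10041386 and 12836119 reads on genes (9941919 to 14703839 over the series), of which the top 50 genes of a library held 18.2% to 21%. Libraries of 1 treatment were not copies of each other: a chi-square test of their counts gave 3.02 to 8.77 per degree of freedom. No label names a sequencing run, but the sample-sheet numbers in the header start again within the series, and at 24 h the Ibr and the AS library of each passage lay in the same stretch of these numbers. The 8 B-cell markers summed to 4152 to 4730 CPM (reads scaled to the normalised library size) with Ibr and 4146 to 4461 CPM with AS. Most of this sum was DLA-DRA, with a mean of 3421 CPM with Ibr and 3385 CPM with AS. Of the 8 markers, 7 averaged at least 1 CPM, while NFAM1 had 1 read in all over the 6 libraries. The summed level of the 4 T- and NK-cell markers was at most 0.155 CPM, and 2 of them were at 0 throughout. Epithelial markers summed to 26.5 to 28.1 CPM with Ibr and 26.2 to 28.4 CPM with AS, and melanocyte markers to 0.821 to 1.39 CPM and 0.93 to 1.61 CPM.

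Ibr and AS differed in a small set of genes after 24 h, most of them higher with Ibr, among them NEBL, TMEM71 and LYZ, while EGR1, NAB2 and TXNRD1 were lower. Of 18670 genes tested with edgeR, 39 (0.209%) were differentially expressed (DEGs, which means a Benjamini-Hochberg adjusted p no larger than 0.05 together with a log2 fold change, log2 FC, beyond 1 in either direction). The level was higher with Ibr for 29 of them (0.155% of genes tested) and lower with Ibr for 10 (0.0536%). At an adjusted p of at most 0.05 with any fold, 134 genes (0.718%) differed, 99 higher and 35 lower with Ibr, and 1224 genes had an unadjusted p below 0.05. In the same fit, 210 genes (1.12%) were DEGs of Ibr against DMSO at 24 h and 37 (0.198%) of AS against DMSO, with 9.13% and 2.52% of genes at an adjusted p of at most 0.05, and both of these comparisons share libraries with the direct one. In bulk RNA, fewer cells that express a gene and less of its RNA per cell cannot be told apart. The number of DEGs depended on single libraries: it was 17 without AS replicate 2, 22 without Ibr replicate 1, 22 without AS replicate 3 and 25 without Ibr replicate 3. With only the 6 libraries in the fit it was 74, with 1052 genes at an adjusted p of at most 0.05.

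**Figure D1:**
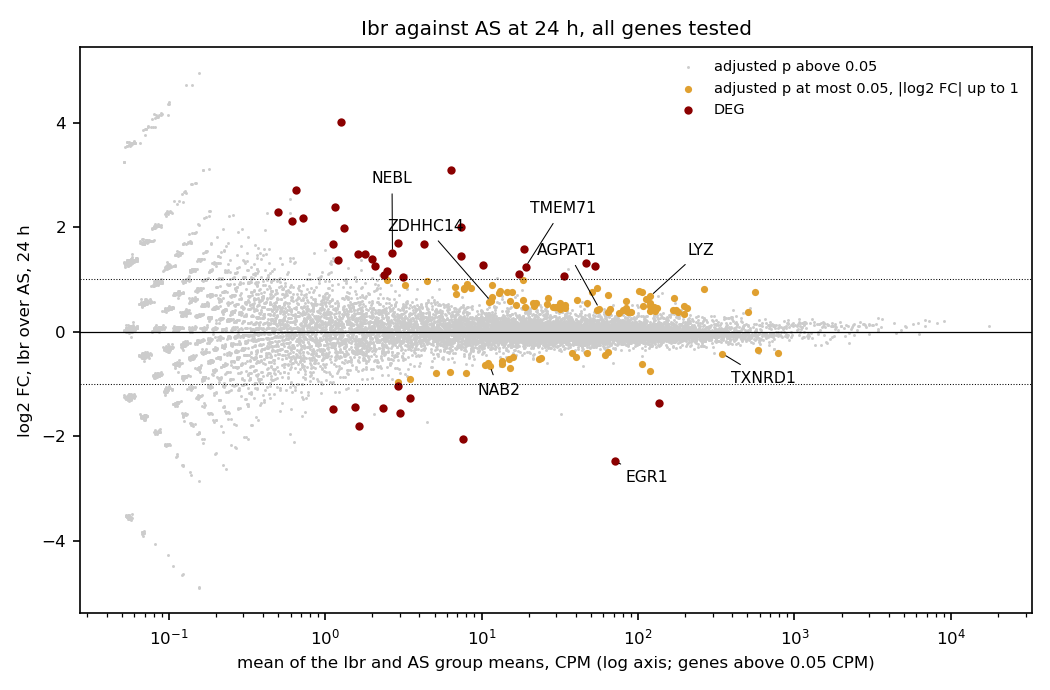
Log2 FC of Ibr over AS at 24 h (vertical axis) against the mean of the 2 group means in CPM (horizontal, log axis), 1 point per gene above 0.05 CPM. Dark red points are the 39 DEGs, orange points are further genes at an adjusted p of at most 0.05, and dotted lines mark a log2 FC of 1 in either direction. Most of the DEGs lie at low levels, with EGR1 furthest down.

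The data also bound how far most genes can differ. Of the 10751 genes that averaged 1 CPM or more over the 6 libraries, 10240 (95.2%) had a 95% interval of the log2 FC that lay wholly between -1 and 1, and 7792 (72.5%) one that lay between -0.5 and 0.5. The median half-width of the interval was 0.24. The median log2 FC was -0.01, and 47.2% of these genes had a positive value. The 3 Ibr and 3 AS libraries did not overlap for 2083 of the 10751 genes (19.4%), and for 4408 (41%) the difference had the same sign in all 3 passages. On log2 CPM, the Ibr and AS libraries of the same passage lay 29.9 to 32.5 units apart (Euclidean distance, median 30.7). Libraries of different passages within 1 treatment lay 24.0 to 29.4 units apart with AS and 25.1 to 29.7 with Ibr. Ibr and DMSO libraries of the same passage were 38.9 to 45.0 units apart, and AS and DMSO libraries 30.3 to 35.6.

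Gene symbols could be paired with 1068 of the identifiers. Of these genes, 8 differed at an adjusted p of at most 0.05, and 3 of the 8 (NEBL, TMEM71 and EGR1) were DEGs. The same direction in all 3 passages was a condition for naming them. All 134 genes at that adjusted p met it, and for 132 the groups did not overlap. Agreement across passages and lack of overlap, given below for single genes, thus describe the calls and add no support to them.

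NEBL encodes nebulette, an actin-binding protein of the nebulin family, and was higher with Ibr. It measured 4.56, 4.10 and 3.28 CPM with Ibr in replicates 1, 2 and 3, and 1.27, 1.70 and 1.22 CPM with AS. The lowest Ibr library was thus well above the highest AS library. The log2 FC of Ibr over AS was 1.5 (SE 0.263, adjusted p = 0.000102, edgeR), and the difference within a passage ranged from 1.23 to 1.77. TMEM71, which encodes a membrane protein, measured 30.3, 24.98 and 25.1 CPM with Ibr and 12.3, 9.92 and 11.8 CPM with AS. All Ibr libraries held over double the level of their AS partner, and the log2 FC was 1.24 (SE 0.185, adjusted p = 0.000321, edgeR). NEBL, TMEM71 and LYZ passed at an adjusted p of at most 0.05 in all 9 fits in which a passage or 1 of the 6 libraries was left out.

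LYZ, the gene of lysozyme, which cleaves bacterial cell walls and is a marker of myeloid cells, measured 158, 133 and 151 CPM with Ibr and 87.5, 90.1 and 98.9 CPM with AS. The groups did not overlap, and the log2 FC was 0.68 (SE 0.122, adjusted p = 0.002, edgeR). The 4 myeloid markers together summed to 238 to 279 CPM with Ibr and 182 to 207 CPM with AS. LYZ was the only 1 of the 4 to pass, while ANXA1 had a log2 FC of 0.18 and CSF2RB one of 0.13. TREM2 had 1 read in all over the 6 libraries, which allows no comparison. The part of other cells in the LYZ difference was not tested.

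AGPAT1, an acyltransferase that makes phosphatidic acid for membrane lipids and triglycerides, measured 62.4, 62.2 and 71.1 CPM with Ibr and 50.3, 46.0 and 47.4 CPM with AS. Its log2 FC was 0.44 (SE 0.104, adjusted p = 0.0117, edgeR), a small difference with no overlap of the groups. The adjusted p of AGPAT1 rose above 0.05 without replicate 2 (0.0506) or 3 (0.535), without Ibr replicate 1 (0.058) or 3 (0.14) and without AS replicate 2 (0.179) or 3 (0.128). ZDHHC14 encodes a palmitoyltransferase, an enzyme that attaches palmitate to proteins. It measured 16.3, 11.5 and 13.4 CPM with Ibr and 10.1, 7.67 and 9.85 CPM with AS, and the log2 FC was 0.58 (SE 0.150, adjusted p = 0.0327, edgeR). The groups came close without overlap, and each Ibr library was above its AS partner. ZDHHC14 was the least stable of the 8 calls: it passed in 1 of the 9 fits with a passage or library left out (without Ibr replicate 2, 0.0339), and the adjusted p reached 0.594 without Ibr replicate 1.

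EGR1, an immediate-early zinc-finger transcription factor that ERK signalling induces, had the most negative log2 FC of the 10 DEGs lower with Ibr. It measured 44.9, 15.9 and 12.4 CPM with Ibr and 129.5, 98.6 and 127.8 CPM with AS. Every Ibr library was below every AS library, and the Ibr libraries also differed among themselves by a larger ratio than the AS libraries did, with replicate 1 the highest. The log2 FC was -2.48 (SE 0.558, 95% interval -3.64 to -1.32, adjusted p = 0.0366, edgeR), and the difference was -1.53 in replicate 1, -2.62 in replicate 2 and -3.36 in replicate 3. The direction held in every fit, which the lack of overlap made nearly certain, but the call did not. The adjusted p was 0.286 with only the 6 libraries, 0.362 without the passage term, 0.49 without replicate 2, 0.15, 0.136 and 0.206 without Ibr replicate 1, 2 or 3, and 0.173 and 0.18 without AS replicate 2 or 3.

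NAB2 encodes a corepressor that binds EGR proteins and is itself an EGR1 target. It measured 8.45, 8.20 and 9.75 CPM with Ibr and 12.8, 13.7 and 14.7 CPM with AS, so it was lower with Ibr in every passage and the groups did not overlap. The log2 FC was -0.65 (SE 0.143, adjusted p = 0.00544, edgeR). TXNRD1, the cytosolic thioredoxin reductase and a known target of the oxidative stress factor NRF2, measured 289, 300 and 301 CPM with Ibr and 373, 421 and 395 CPM with AS. The spread within Ibr was small beside the difference, and the log2 FC was -0.42 (SE 0.086, adjusted p = 0.00188, edgeR). NAB2 and TXNRD1 each missed the threshold in 3 of the 9 fits. These were the fits without replicate 2 (adjusted p 0.101 for NAB2 and 0.0847 for TXNRD1), without replicate 3 (0.0661 and 0.14) and without AS replicate 2 (0.0868 and 0.0623).

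**Figure D2:**
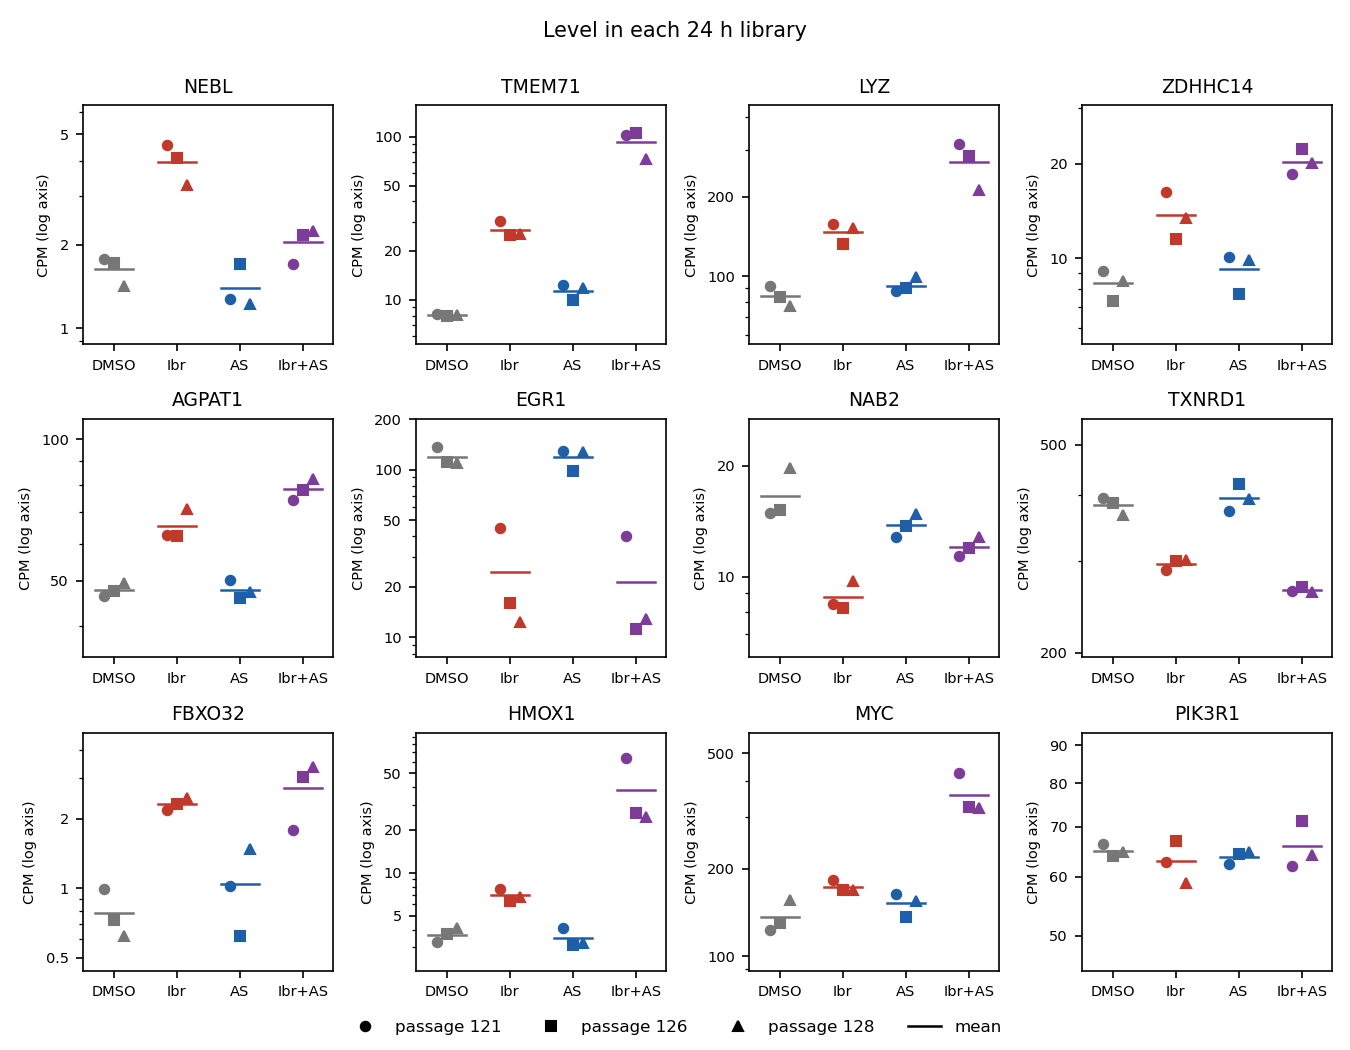
Level in CPM (log axis) of 12 genes in each 24 h library, by treatment, with 1 symbol per passage and a line at the mean of the 3 libraries. NEBL, TMEM71, LYZ, ZDHHC14 and AGPAT1 are higher with Ibr than with AS, EGR1, NAB2 and TXNRD1 are lower, and FBXO32, HMOX1, MYC and PIK3R1 did not pass the test.

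The DEGs with no symbol were mostly low in level, and the median over all 39 DEGs was 2.69 CPM. The identifier with the largest log2 FC was ENSCAFG00000019993, with 27, 31 and 24 reads with Ibr and 2, 3 and 0 reads with AS. With so few reads the size is uncertain: the ratio of the summed reads, 82 against 5, was 17.2 after scaling to library size, with an exact 95% interval of 7.07 to 54.3 that covers counting error only. Its fitted log2 FC was 4.01 (SE 0.864, adjusted p = 0.0262, edgeR). That call was lost in 7 of the 9 fits with a passage or library left out, with adjusted p of 0.402 without replicate 2, 0.116, 0.0581 and 0.0742 without Ibr replicate 1, 2 or 3 and 0.0804, 0.14 and 0.168 without AS replicate 1, 2 or 3. ENSCAFG00000028656 measured 9.46, 13.6 and 11.1 CPM with Ibr and 1.36, 1.32 and 1.31 CPM with AS, a log2 FC of 3.09 (SE 0.262, adjusted p = 1.42e-11, edgeR). The AS libraries were nearly alike, and all 3 Ibr libraries were far above them. Among genes lower with Ibr, ENSCAFG00000006264 measured 2.20, 3.09 and 3.39 CPM with Ibr and 7.39, 13.3 and 15.9 CPM with AS. Replicate 1 was lowest and replicate 3 highest under both inhibitors, and within each passage Ibr was lower, with a log2 FC of -2.05 (SE 0.190, adjusted p = 5.96e-15, edgeR). ENSCAFG00000015628 measured 0.338, 0.928 and 0.923 CPM with Ibr and 1.70, 2.63 and 3.40 CPM with AS, with a log2 FC of -1.79 (SE 0.341, adjusted p = 0.00051, edgeR). Without the passage term, the adjusted p of these last identifiers was 0.0551 and 0.313.

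Several genes that were looked up whatever their result did not pass. FBXO32 encodes atrogin-1, a ubiquitin ligase subunit, and is a textbook target of FOXO factors. It measured 2.20, 2.32 and 2.46 CPM with Ibr and 1.02, 0.62 and 1.48 CPM with AS, and the groups did not overlap, but the log2 FC of 1.18 (95% interval 0.52 to 1.83) had an adjusted p of 0.0653 (edgeR). HMOX1, heme oxygenase 1, which degrades heme, measured 7.69, 6.34 and 6.77 CPM with Ibr and 4.08, 3.1 and 3.23 CPM with AS. The log2 FC was 1.00 (95% interval 0.10 to 1.90) with an adjusted p of 0.637 (edgeR), although no Ibr library was as low as an AS library. In a fit of the 6 libraries alone, the adjusted p was 3.58e-07 for HMOX1 and 0.00182 for FBXO32. Without replicate 1 or replicate 3 it was 0.0004 and 0.00557 for HMOX1, and without replicate 3 it was 0.0449 for FBXO32.

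NFATC1, a transcription factor that calcium and calcineurin activate below the B-cell receptor, had 48.5 ± 4.49 CPM with Ibr and 38.1 ± 2.61 CPM with AS (SD, n = 3). Its log2 FC was 0.35 (95% interval 0.14 to 0.56, adjusted p = 0.106, edgeR). MYC, a driver of cell growth, had 174 ± 8.47 CPM and 152 ± 14.4 CPM, with a log2 FC of 0.19 (95% interval 0.00 to 0.39, adjusted p = 0.74, edgeR). With only the 6 libraries in the fit, the adjusted p was 9.41e-05 for NFATC1 and 0.00961 for MYC. BCL2, which blocks apoptosis, had 23.5 ± 1.13 CPM with Ibr and 21.04 ± 0.999 CPM with AS, and its 95% interval ran from -0.08 to 0.40. PIK3R1 encodes a regulatory subunit of class I PI3K and had 62.9 ± 4.08 CPM with Ibr and 63.8 ± 1.24 CPM with AS. Its interval, from -0.21 to 0.17, leaves room for only a small difference. MYB, a transcription factor of blood cell progenitors, had 32.8 ± 2.67 CPM and 35.8 ± 0.684 CPM, with an interval from -0.35 to 0.10. For BCL2, PIK3R1 and MYB the adjusted p was 0.948, 1 and 0.948 (edgeR).

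Pathway lists were drawn up from genes with a symbol, which come from tables the study made on these same samples, so their counts are not independent evidence of a direction. The 13 lists hold 192 different genes, all of them tested, and 4 of the 192 differed at an adjusted p of at most 0.05 (background 0.718% of all genes tested). In early response and growth transcription, 2 of 12 genes were lower with Ibr (EGR1 and NAB2) and none was higher. In sterol and lipid metabolism 1 of 17 was higher (AGPAT1), and in oxidative stress and iron 1 of 14 was lower (TXNRD1). None of the other 10 lists, with 155 different genes, held a gene that passed in edgeR. Of these genes, 20 had an unadjusted p below 0.05 in edgeR (background 6.56% of all genes tested). DESeq2 gave an adjusted p to 142 of them, and it was at most 0.05 for 3 (DGKA, CCND3 and LMNB1; background 1.44% of the 12516 genes with an adjusted p). These 10 lists are B-cell receptor, calcium and NF-κB signalling (22 genes), the PI3K, AKT, mTOR and FOXO axis (16), antigen presentation and interferon (16), amino acid and ATF4 response (13), hypoxia (7), cell cycle and DNA replication (28), apoptosis and p53 (10), cytokines and receptors (16), lysosome and endosome (19) and ribosome and translation (15).

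List medians over members with a mean of at least 1 CPM stayed close to the median of all genes (-0.01). Of all genes with such a mean, 47.2% had a positive log2 FC, which is the background for the counts below. The lowest was that of cell cycle and DNA replication, at -0.10, where 4 of 27 members had a positive log2 FC and values ran from -0.32 to 0.27. MCM5, a subunit of the replicative helicase, had a log2 FC of -0.22 (adjusted p = 0.52) and CDK4, the G1 kinase, one of -0.14 (adjusted p = 0.95). The median was 0.15 for the 5 measured genes of the hypoxia list and 0.11 for ribosome and translation, where 12 of 15 members were positive with values from -0.13 to 0.22. For B-cell receptor, calcium and NF-κB signalling it was 0.07, with 15 of 21 members positive. For the PI3K, AKT, mTOR and FOXO axis it was 0.03, with 9 of 16 positive. RPTOR, which carries substrates to mTOR complex 1, had a log2 FC of 0.02, and SGK1, a kinase below PI3K, one of -0.25. The medians of the other lists were 0.05 for cytokines, 0.02 each for antigen presentation and for apoptosis, 0.01 for lysosome and endosome, -0.02 for sterol and lipid metabolism, -0.03 for early response, -0.06 for amino acid response and -0.07 for oxidative stress.

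**Figure D3:**
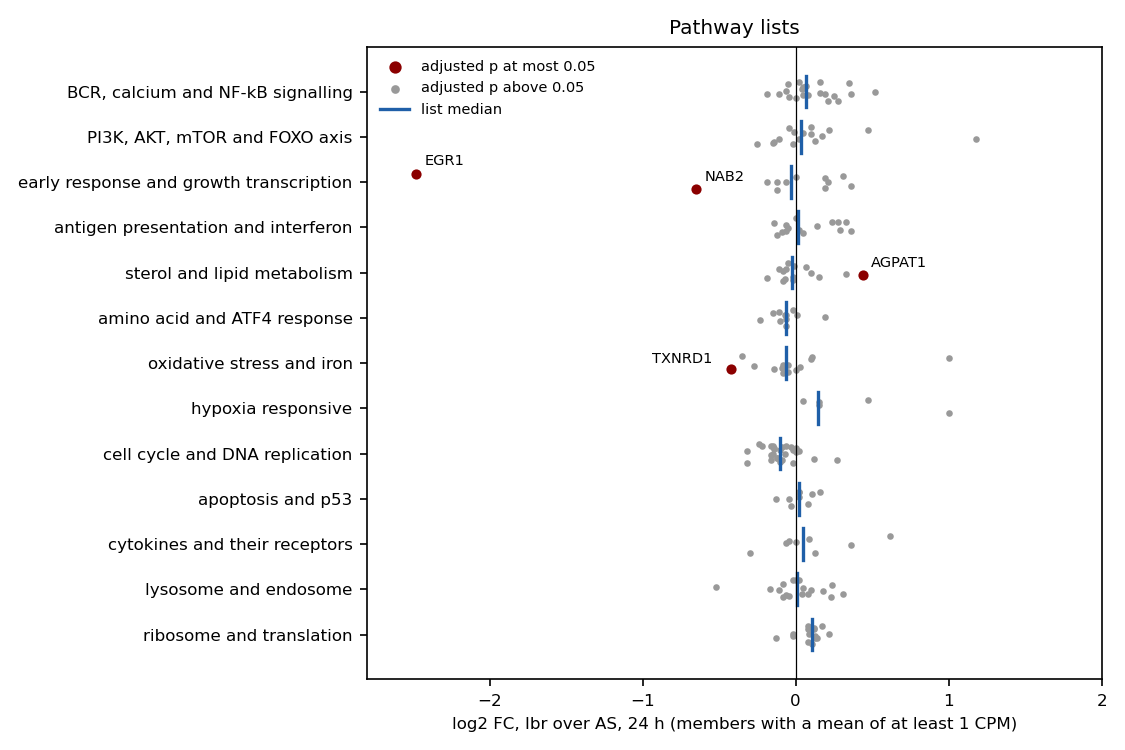
Log2 FC of Ibr over AS at 24 h for members of 13 pathway lists with a mean of at least 1 CPM, 1 point per gene and list, with the list median as a blue line. The 4 genes at an adjusted p of at most 0.05 are in dark red with their symbols, and all list medians lie between -0.10 and 0.15.

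A further 7 genes were singled out after their values had been seen and their p-values are given as a description only. TNFRSF13C, the receptor for the B-cell survival factor BAFF, measured 157, 159 and 174 CPM with Ibr and 127.7, 123 and 131 CPM with AS (log2 FC 0.36, adjusted p = 0.0575, edgeR). IRF1, an interferon response factor, measured 61.7, 57.7 and 62.1 CPM with Ibr and 44.4, 46.7 and 50.5 CPM with AS (log2 FC 0.36, adjusted p = 0.0671). Both stood higher in all 3 Ibr libraries and missed the threshold. SLA, an adaptor that dampens antigen receptor signalling, had a log2 FC of 0.52 (adjusted p = 0.0915), and MTSS1, which binds actin and membranes, one of 0.67 (adjusted p = 0.147). Below zero were LMNB1, a nuclear lamina protein (log2 FC -0.32, adjusted p = 0.0506), SQSTM1, the autophagy receptor p62 (-0.35, 0.0724), and AKAP12, a scaffold for protein kinase A (-0.65, 0.207). For LMNB1 the adjusted p was 0.000194 with DESeq2 and 0.0185 with filterByExpr.

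The comparisons of each inhibitor with DMSO use the same Ibr or AS libraries as the direct comparison and share the DMSO libraries, so their values are set side by side and are not independent of it. In the fit, the direct log2 FC is that of Ibr over DMSO less that of AS over DMSO. EGR1 measured 136, 111 and 109 CPM with DMSO, with a log2 FC of -2.47 for Ibr (adjusted p = 0.00537) and 0.01 for AS (adjusted p = 1, edgeR). The ranges of the AS and DMSO libraries overlapped, while all Ibr libraries lay below both. NAB2 had 16.6 ± 2.7 CPM with DMSO (SD, n = 3) and a log2 FC of -0.91 with Ibr (adjusted p = 4.35e-07) and -0.26 with AS (adjusted p = 0.389). TXNRD1 had 383 ± 14.6 CPM with DMSO, and its log2 FC was -0.37 with Ibr (adjusted p = 0.00124) and 0.05 with AS (adjusted p = 0.926). NEBL had 1.64 ± 0.185 CPM with DMSO, and its log2 FC was 1.28 with Ibr (adjusted p = 8.57e-05) and -0.22 with AS (adjusted p = 0.841).

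TMEM71 had a log2 FC over DMSO of 1.74 with Ibr (adjusted p = 2.81e-07) and 0.49 with AS (adjusted p = 0.258). For LYZ the values were 0.81 (adjusted p = 1.59e-05) and 0.13 (0.795), for AGPAT1 0.45 (0.00132) and 0.00 (1), and for ZDHHC14 0.72 (0.000225) and 0.15 (0.795). SQSTM1 showed another order, with 0.07 for Ibr (adjusted p = 0.809) and 0.42 for AS (adjusted p = 0.00635). IRF1 rose with both, by 0.75 with Ibr (adjusted p = 1.27e-08) and by 0.39 with AS (adjusted p = 0.0198). FBXO32 had values of 1.55 with Ibr (adjusted p = 0.000549) and 0.37 with AS (adjusted p = 0.795).

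**Figure D4:**
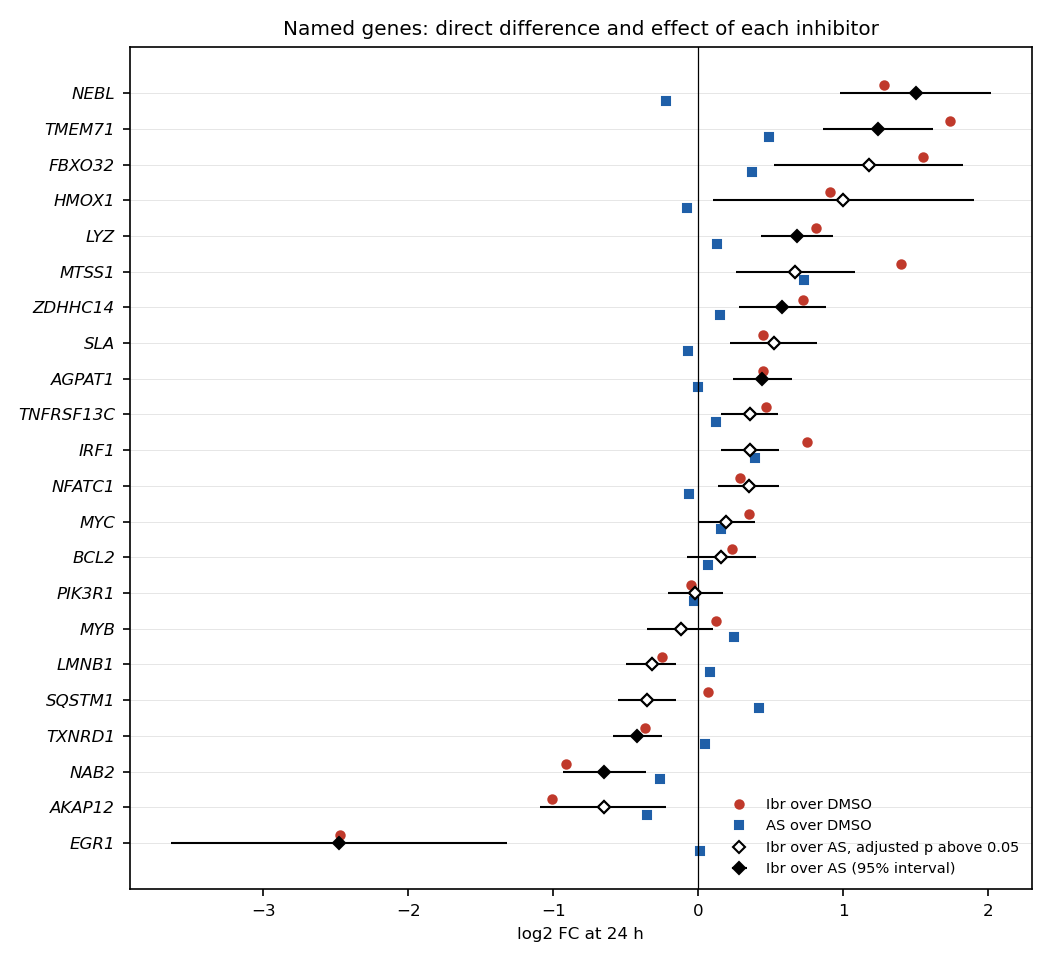
Log2 FC at 24 h of the 22 named genes with a symbol: Ibr over AS with its 95% interval (diamonds, filled where the adjusted p was at most 0.05), Ibr over DMSO (red circles) and AS over DMSO (blue squares). For EGR1, TXNRD1 and NEBL the AS squares lie near 0 and the Ibr circles near the diamonds. The 3 comparisons share libraries, and in the fit Ibr over AS is Ibr over DMSO less AS over DMSO. A square near 0 thus places the circle at the diamond.

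With both inhibitors together at 24 h, EGR1 measured 40.1, 11.2 and 12.8 CPM, a range close to that with Ibr alone. TMEM71 measured 102, 105 and 72.3 CPM and LYZ 316, 285 and 211 CPM, above the levels in every library with a single inhibitor. NEBL did not follow them: it measured 1.70, 2.18 and 2.24 CPM with the combination, below all 3 Ibr libraries. HMOX1 reached 63.8, 26.3 and 24.8 CPM.

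The same direct comparison was then followed in the libraries of 48 h and 72 h, which come from the same passages. The values of these libraries do not enter the fold changes of Ibr over AS at 24 h directly, but they share the fit, its estimate of the spread and the passage terms, so the times are not independent. Ibr and AS differed in 62 DEGs at 48 h (0.332% of genes tested) and in 78 at 72 h (0.418%), with 311 and 364 genes at an adjusted p of at most 0.05 (1.67% and 1.95%). Of the 39 DEGs of 24 h, 39 had the same sign at 48 h and 38 at 72 h, where 71.7% and 57.6% of all genes averaging 1 CPM or more did so. At 48 h, 24 of the 39 were again DEGs (61.5% of the list at 24 h and 38.7% of that at 48 h), and 19 were at 72 h (48.7% and 24.4%). Of the 134 genes at an adjusted p of at most 0.05, 133 kept their sign at 48 h and 104 passed again, and all but 6 kept it at 72 h, with 56 passing again. Within single passages, 129 to 133 of the 134 had the same sign at 48 h and 117 to 124 at 72 h. The share of all genes that did so within single passages was not counted, so these counts have no background. At 72 h the third passage has no pair, since its Ibr library was not used. In replicate 2 the 48 h libraries lay in different stretches of the sample-sheet numbers, and 129 of 134 kept the sign there.

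NEBL stayed apart at all times. It measured 6.03, 4.23 and 3.91 CPM with Ibr and 1.58, 1.5 and 0.821 CPM with AS at 48 h, and 5.37 and 6.41 CPM with Ibr and 0.548, 0.985 and 1.28 CPM with AS at 72 h. The log2 FC was 1.86 at 48 h (adjusted p = 1.81e-07) and 2.54 at 72 h (adjusted p = 8.86e-11), and the change of 1.04 from 24 h to 72 h was not significant (adjusted p = 0.705, edgeR). NAB2 was lower with Ibr at 48 h (log2 FC -0.84, adjusted p = 2.45e-05) and at 72 h (-1.26, adjusted p = 5.17e-10), with 12.3 and 9.43 CPM against 25.2, 22 and 35.96 CPM at 72 h. EGR1 overlapped at 48 h, where replicate 1 measured 110.4 CPM with Ibr and replicate 2 measured 79.6 CPM with AS. Its log2 FC was -1.47 at 48 h (adjusted p = 0.252) and -1.67 at 72 h (adjusted p = 0.227).

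TMEM71 had a log2 FC of 1.24 at 24 h, 0.88 at 48 h (adjusted p = 0.0109) and 0.45 at 72 h (adjusted p = 0.453), and the change from 24 h to 72 h had an adjusted p of 0.685 (edgeR). LYZ, AGPAT1 and TXNRD1 passed at 48 h (log2 FC 0.72, 0.54 and -0.45) and not at 72 h (0.42, 0.33 and -0.26). Their changes from 24 h to 72 h were -0.26 (SE 0.184), -0.11 (SE 0.157) and 0.16 (SE 0.129), and none of these passed. ZDHHC14 passed at both times, with 0.90 at 48 h (adjusted p = 5.37e-05) and 0.76 at 72 h (adjusted p = 0.00674). SLA, which had missed the threshold at 24 h, had a log2 FC of 1.10 at 48 h (adjusted p = 3.69e-08) and 1.02 at 72 h (adjusted p = 2.54e-06). The change of SLA from 24 h did not pass at 48 h (0.58, SE 0.212) or at 72 h (0.51, SE 0.22, adjusted p = 0.772, edgeR). ENSCAFG00000006264 remained lower with Ibr, at -2.48 (adjusted p = 4.21e-17) and -2.07 (adjusted p = 1.91e-09).

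**Figure D5:**
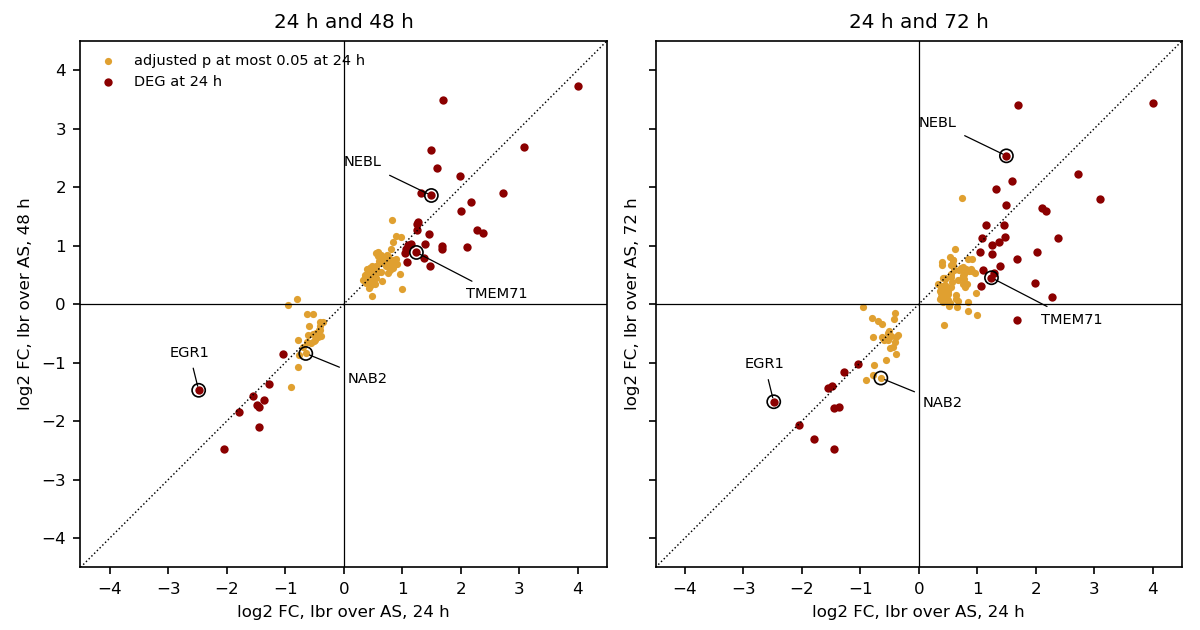
Log2 FC of Ibr over AS at 48 h (left) and 72 h (right) against that at 24 h for the 134 genes at an adjusted p of at most 0.05 at 24 h, with DEGs in dark red and the dotted line at equal values. Of the 134 genes, 133 have the same sign at 48 h and all but 6 at 72 h. Circles mark EGR1, NEBL, TMEM71 and NAB2.

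The difference between Ibr and AS was also compared between times within the fit. Between 48 h and 24 h, 0 genes passed an adjusted p of 0.05 in edgeR or with DESeq2. Of the 18670 genes tested, 308 had an unadjusted p below 0.05 in edgeR, a smaller share than the 0.05 that no change at all would give. Without replicate 1, 11 genes passed the adjusted p in edgeR and 9 of them were DEGs, and without replicate 3, 1 gene passed and was a DEG. Between 72 h and 24 h, 14 genes passed (0.075% of genes tested), and 3 of them were past the DEG limits (0.0161%). Of the 134 genes of 24 h, 3 were among the 14.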

How the data were processed

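Poly-A RNA of CLBL-1 was sequenced by the authors as single-end reads of 75 bases. Reads were mapped to CanFam3.1 with STAR 2.7.5a, and the authors deposited raw counts of reads per Ensembl gene. Which strand column was kept is not given in the sources used here, so overlapping antisense genes may be mixed. The columns are 36 libraries in 12 groups of 3 (passages 121, 126 and 128 as replicates 1, 2 and 3), and a label conflict (DMSO 24 h replicate 3, passage 126 in the title) was settled by the passage field (128).

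Counts were fitted with edgeR 4.0.16 and limma 3.58.1 in R 4.3.3: TMM factors, genes with at least 2 reads, robust quasi-likelihood fits and F tests on 35 libraries (without Ibr 72 h replicate 3, as in the study) with passage and group as terms, and Benjamini-Hochberg adjustment over 18670 genes. CPM use TMM-scaled libraries (prior count of 1 on the log2 scale). The fit was checked on simulated counts, with genes of at least 1 CPM changed by a log2 FC of 1.5 or 2 either way. Nearly all changed genes were recovered. Smaller changes were not simulated, so their recovery is not known. Unchanged genes passed the adjusted p of edgeR more often than its nominal rate and more often than that of DESeq2. Fewer did so with the fold limit, so calls on an adjusted p alone may be too many. Passage numbers paired the samples: Ibr and AS libraries of the same passage deviated together from their group means (r = 0.296, 0.145 and 0.21 over 10785 genes), against -0.209 to 0.0386 for different passages. Deviations from a group mean cancel within the group, so positive values for the same passage push those for different passages down. The contrast is thus partly arithmetic. All libraries of passage 128 lay in the later stretch of sample-sheet numbers, so passage and stretch are not fully separated.

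The comparison, the named genes and the lists were chosen with earlier results of these data known. Named were paired DEGs of at least 1 CPM that moved alike in all passages, up to 12 each way. These were filled up with genes at an adjusted p of at most 0.05. Also named were list members that passed, 8 genes looked up whatever their result, and 2 identifiers each way. The reference table at hand holds 43286 genes but 0 Ensembl identifiers, so symbols came from the given parts of the study's tables of differential expression and modules (1068 genes). No fold change or p-value of those tables was used, and no sequences are shown. One gene list is not reported here. Alternatives were DESeq2 1.42.0, RLE factors, filterByExpr, no filter, all 36 libraries, the 6 libraries alone, no passage term, glmTreat, passages or libraries left out and, chosen after seeing the data, the stretch of sample-sheet numbers in the header as a term.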

Additional observations from a re-analysis of the deposited data

Results flagged for a closer look

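The difference between Ibr and AS was not the same at 72 h as at 24 h for 3 genes past the DEG limits, by a test of the difference itself within the edgeR fit, out of 14 genes at an adjusted p of at most 0.05. None of the 3 has a symbol. For ENSCAFG00000016043, the log2 FC of Ibr over AS was 0.07 at 24 h, with group means of 4.19 and 3.99 CPM, and -1.65 at 72 h, with 2.28 and 7.26 CPM, a change of -1.72 (SE 0.327, adjusted p = 0.00642). For ENSCAFG00000016604 it was 0.55 at 24 h (5.29 and 3.57 CPM) and -1.84 at 72 h (1.70 and 6.57 CPM), a change of -2.39 (SE 0.454, adjusted p = 0.0212). For ENSCAFG00000005693 it was 0.73 at 24 h (16.1 and 9.60 CPM) and 1.81 at 72 h (25.8 and 7.58 CPM), a change of 1.08 (SE 0.238, adjusted p = 0.0438). The 72 h values rest on 2 Ibr libraries. The count of 3 was 1 with all 36 libraries, 14 without replicate 1 and 13 without replicate 3.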

How the results depend on the processing

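All 39 DEGs of Ibr against AS at 24 h kept their sign in every alternative. For all 39 the Ibr and AS libraries did not overlap, so a sign could hardly change and its keeping is no test of the calls. At an adjusted p of at most 0.05 with any fold, DESeq2 gave 180 genes, 125 of the 134 of edgeR among them. The count of DEGs was 39 with DESeq2 (34 of the 39 among them), 39 with RLE factors (39), 40 with filterByExpr (37), 35 with all 36 libraries (35), and 39 with the stretch of sample-sheet numbers as a term (39), which was chosen after seeing the data. With only the 6 libraries it was 74 (53 higher and 21 lower with Ibr), with glmTreat, which tests for a change beyond a log2 FC of 1, it was 2 (1 and 1), and at an adjusted p alone 134 (99 and 35). With a passage or library left out, it ranged from 17 to 52, with 11 to 36 higher and 6 to 16 lower. Without the replicate block for passage it was 27, with 26 of the 39 among them and 4 lower, and EGR1, ZDHHC14, ENSCAFG00000006264 and ENSCAFG00000015628 lost their calls, while the block changed no other call of a named gene.

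With glmTreat the counts were 16 for Ibr against DMSO, 1 for AS against DMSO, 6 for the direct comparison at 48 h, 7 at 72 h and 0 for the difference between 72 h and 24 h. With all 36 libraries they were 48 at 72 h and 1 for that difference. With passages left out, the count of DEGs at 48 h ranged from 64 to 101, the difference between 48 h and 24 h from 0 to 9, and that between 72 h and 24 h from 2 to 14. The cause of these shifts was not tested.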
